A study of Mus musculus with 12 samples.

Results

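Eph receptors, ephrins, semaphorins, plexins and neuropilins are families of guidance proteins that steer axons and migrating cells. The 48 genes described here were chosen by name from these families, by a rule that uses no measured value, from 21631 protein-coding genes on the autosomes and the X chromosome. They comprise 13 Eph receptors, 7 ephrin ligands, 19 semaphorins and 9 plexins and neuropilins. A peak of open chromatin was given to a gene when the middle of the peak fell between 10 kb before and 10 kb after the gene on GRCm38. By this rule 147 of 34118 peaks in wild-type (WT) cells and 111 of 27187 peaks in Runx1 knockout (KO) cells belonged to these genes.

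Open chromatin was measured by ATAC-seq, which uses the Tn5 transposase to cut and tag accessible DNA, in C2C12 cells, an established line of mouse myoblasts. The series has 12 samples: WT (called control in the design text) and Runx1KO cells in growth medium (GM, day 0, 20% FBS) and at day 2 (D2) of differentiation medium, with 3 samples in each of the 4 groups. Peak lists of the 2 growth-medium groups were used, and the day 2 groups were not analysed here. Runx1 encodes a DNA-binding transcription factor, and whether the KO cells are 1 clone or a pool is not given in the sources used here.

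The deposited names of the peaks carry the label of replicate 1 of each genotype, there is 1 set of values per genotype, and whether replicates 2 and 3 entered it is not given in the sources used here. There is no replicate error, no p-value is given, and the 95% Wilson intervals cover only the counting of peaks within these lists. A peak was shared when a peak of the other list overlapped it by at least 1 bp and specific when none did, as in the authors' deposited classes. The strength of a peak is given as the authors' fold (the peak against its background) and −log10 q, which were compared only within a list ("strongest" and ranks refer to −log10 q), because the sequencing depth is unknown. Where WT and KO values of a shared site are both printed, each describes its own list and their difference is not interpreted.

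Ephrins are ligands that stay on the cell surface: ephrin-A proteins are held by a lipid anchor and ephrin-B proteins span the membrane. They bind Eph receptors, a large family of receptor tyrosine kinases, on a touching cell, and both cells can respond, often by repulsion. Class 3 semaphorins are secreted and act through neuropilins, which bind them, and plexin-A receptors, which signal through a GTPase-activating domain, whereas most other semaphorins are membrane proteins that bind plexins directly. In skeletal muscle these proteins take part in the guidance of motor axons, the placing of nerve-muscle contacts and the movement of myoblasts and satellite cells.

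Runx1 itself, the targeted gene on chromosome 16, had 19 peaks in WT cells and 12 in KO cells, and 7 of the 19 were WT specific, so the gene was not devoid of peaks in the library labelled KO. The lists do not read the edited allele. In what follows, an end of a gene is either of its boundaries, the start included, because ends were taken without strand. Of myoblast markers, 3 of 6 (Myod1, Des and Chrna1) had a peak within 1 kb of a gene end in both lists, against 1 of 5 neuronal (Syt1), 0 of 4 endothelial, 1 of 5 blood (Spi1) and 0 of 4 epithelial markers. Counting any peak in the 10 kb window, the numbers were 5 of 6 myoblast, 2 of 5 neuronal, 4 of 4 endothelial, 1 of 5 blood and 3 of 4 epithelial markers, so peaks in the window do not set the myoblast markers apart from the endothelial or epithelial ones. Myf5, a myoblast marker, had no peak in its window. Call numbers in the peak names ran to 55373 in WT and 48922 in KO, above the number of peaks, so numbers are missing from both lists. Numbers of the other list can be missing between its peaks on either side of a specific peak. Calls of the other library may have been taken out there. This is given for some of the main specific peaks and counted over all specific peaks further on.

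The promoters of 42 of the 48 genes were matched by symbol in a RefSeq table (GRCm38.p6, 250 bases before to 50 bases after a start site). The genes without a match were Efnb3, Sema3b, Sema3f, Sema6a, Plxna1 and Plxna4. At 3 genes a specific peak lay over the promoter, and these sequences are shown first, 5′ to 3′ on the strand of the gene, with the bases under the specific peak in capitals. The Epha4 promoter (chr1:77515039-77515338, minus strand) had 174 bases under a WT specific peak, the Epha2 promoter (chr4:141300971-141301270, plus strand) had 139 under a KO specific peak, and the Sema3e promoter (chr5:14025026-14025325, plus strand) had 116 under a WT specific peak.
Epha4: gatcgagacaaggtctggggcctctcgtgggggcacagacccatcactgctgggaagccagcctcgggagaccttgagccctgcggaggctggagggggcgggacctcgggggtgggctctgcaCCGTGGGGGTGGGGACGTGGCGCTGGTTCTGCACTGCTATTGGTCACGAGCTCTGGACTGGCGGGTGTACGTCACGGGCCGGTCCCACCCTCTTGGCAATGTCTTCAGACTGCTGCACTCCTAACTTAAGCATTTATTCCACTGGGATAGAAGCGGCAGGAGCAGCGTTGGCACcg
Epha2: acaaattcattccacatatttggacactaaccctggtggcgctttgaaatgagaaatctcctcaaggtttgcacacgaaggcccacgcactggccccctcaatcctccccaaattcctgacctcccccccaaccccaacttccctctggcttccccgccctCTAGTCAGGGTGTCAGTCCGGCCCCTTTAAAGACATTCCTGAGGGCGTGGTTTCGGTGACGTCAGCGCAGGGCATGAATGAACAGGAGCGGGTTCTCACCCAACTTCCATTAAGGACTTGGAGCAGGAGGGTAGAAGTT
Sema3e: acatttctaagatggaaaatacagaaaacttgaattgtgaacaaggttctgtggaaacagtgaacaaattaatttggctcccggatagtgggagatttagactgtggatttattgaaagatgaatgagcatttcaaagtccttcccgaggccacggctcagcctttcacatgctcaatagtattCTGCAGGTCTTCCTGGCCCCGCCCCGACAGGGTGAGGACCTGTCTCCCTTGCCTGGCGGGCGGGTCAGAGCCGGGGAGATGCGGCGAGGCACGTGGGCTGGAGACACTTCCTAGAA

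For comparison, the promoters below lay under the strongest shared promoter peak of their subfamily in the WT list: an EphB receptor, an ephrin-A, an ephrin-B, a class 3 semaphorin, a membrane semaphorin, a plexin and a neuropilin. Capitals mark matches to 5 short motifs that are described further on, and sequences in lower case throughout held none. At Sema3d the KO partner of the WT peak lay outside the printed window, and at the other genes both lists had a peak over the promoter. They are Ephb3 (chr16:21204545-21204844, plus strand), Efna1 (chr3:89279596-89279895, minus strand), Efnb2 (chr8:8661193-8661492, minus strand), Sema3d (chr5:12382916-12383215, plus strand), Sema6c (chr3:95160170-95160469, plus strand), Plxnb2 (chr15:89180739-89181038, minus strand) and Nrp2 (chr1:62703067-62703366, plus strand).
Ephb3: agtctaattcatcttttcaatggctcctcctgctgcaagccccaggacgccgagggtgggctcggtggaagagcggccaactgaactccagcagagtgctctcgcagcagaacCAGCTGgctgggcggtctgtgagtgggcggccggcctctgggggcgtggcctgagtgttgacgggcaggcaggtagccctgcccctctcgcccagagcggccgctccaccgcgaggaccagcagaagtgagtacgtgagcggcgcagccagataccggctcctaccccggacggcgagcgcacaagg
Efna1: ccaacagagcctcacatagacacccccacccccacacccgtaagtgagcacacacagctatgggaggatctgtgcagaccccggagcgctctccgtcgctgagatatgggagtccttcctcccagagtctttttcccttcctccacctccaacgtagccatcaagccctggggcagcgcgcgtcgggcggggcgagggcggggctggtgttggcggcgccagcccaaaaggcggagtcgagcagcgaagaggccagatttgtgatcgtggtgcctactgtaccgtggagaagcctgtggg
Efnb2: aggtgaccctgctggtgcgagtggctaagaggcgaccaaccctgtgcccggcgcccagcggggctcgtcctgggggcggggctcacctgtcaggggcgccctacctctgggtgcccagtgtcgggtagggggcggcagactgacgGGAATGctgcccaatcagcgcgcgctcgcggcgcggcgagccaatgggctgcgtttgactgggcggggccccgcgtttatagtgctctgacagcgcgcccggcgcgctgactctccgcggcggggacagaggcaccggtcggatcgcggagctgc
Sema3d: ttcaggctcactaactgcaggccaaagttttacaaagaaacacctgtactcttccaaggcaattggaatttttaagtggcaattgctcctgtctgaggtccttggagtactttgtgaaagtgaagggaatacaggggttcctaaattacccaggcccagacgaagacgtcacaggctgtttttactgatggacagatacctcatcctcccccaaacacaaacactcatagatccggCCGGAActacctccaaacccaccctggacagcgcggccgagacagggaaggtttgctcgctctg
Sema6c: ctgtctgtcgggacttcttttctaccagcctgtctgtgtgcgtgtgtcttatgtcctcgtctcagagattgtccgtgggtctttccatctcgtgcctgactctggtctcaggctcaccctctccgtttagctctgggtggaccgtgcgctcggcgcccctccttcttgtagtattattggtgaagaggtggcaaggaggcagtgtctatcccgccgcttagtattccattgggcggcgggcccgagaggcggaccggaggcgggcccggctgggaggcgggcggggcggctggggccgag
Plxnb2: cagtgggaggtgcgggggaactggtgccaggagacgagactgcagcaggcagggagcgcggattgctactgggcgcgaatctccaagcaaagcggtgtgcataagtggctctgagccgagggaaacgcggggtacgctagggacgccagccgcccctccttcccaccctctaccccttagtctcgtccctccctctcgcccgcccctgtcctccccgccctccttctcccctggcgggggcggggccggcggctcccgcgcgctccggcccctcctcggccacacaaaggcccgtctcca
Nrp2: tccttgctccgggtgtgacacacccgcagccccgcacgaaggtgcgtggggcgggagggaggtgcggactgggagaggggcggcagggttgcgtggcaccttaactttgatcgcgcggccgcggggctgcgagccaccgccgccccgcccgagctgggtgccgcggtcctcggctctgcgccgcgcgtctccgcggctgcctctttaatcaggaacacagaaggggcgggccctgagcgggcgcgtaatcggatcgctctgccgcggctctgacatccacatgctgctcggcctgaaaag

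The first comparison asked how the open regions of the guidance genes divide between WT and KO myoblasts. Of the 147 WT peaks at these genes, 46 (31.3%, interval 24.4 to 39.2) were WT specific, against 25.6% of WT peaks at all protein-coding genes and 27.3% of the whole WT list. Of the 111 KO peaks, 11 (9.91%, interval 5.62 to 16.9) were KO specific, against 7.95% at all protein-coding genes and 9.59% of the whole KO list. All of these background shares lie inside the intervals of the guidance genes. Without Efna5, an ephrin-A ligand with 8 WT specific peaks, the WT specific share was 28.1% (38 of 135, interval 21.2 to 36.3). With both lists limited to a −log10 q of at least 10 and the classes made anew from the limited lists, the specific shares were 25.3% in WT and 21.1% in KO, so a shared peak there could lose a weaker partner. Among peaks that reached the median of their own list, with partners from the full other list, the shares were 12.1% and 0%. Shares over all peaks under these 2 limits are not given, so the changes cannot be called particular to the guidance genes. Specific peaks of the whole lists were also weaker than shared ones (median −log10 q 8.38 against 21.1 in WT, 8.38 against 19.1 in KO).

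Counted by gene, 39 of the 48 had a peak in the WT list, against 13970 of 21631 protein-coding genes. In the KO list 38 of the 48 had one, against 13157 of 21631. A WT specific peak was present at 25 genes, or 64.1% of those with a WT peak, against 39.1% of protein-coding genes with a WT peak. A KO specific peak was present at 9 genes, or 23.7% of those with a KO peak, against 12.3% of protein-coding genes with a KO peak. Guidance genes also held more peaks, with a median of 3 WT peaks against 2, and were longer, with a median length of 42.3 kb against 17.3 kb. Among protein-coding genes with exactly 3 WT peaks, 55.6% had a WT specific one. The part of gene length in these counts was not tested further.

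Both kinds of specific peak occurred at 6 genes (Epha2, Epha4, Efna2, Plxna2, Plxna4 and Nrp2), and 11 genes with peaks had neither. Of 14224 protein-coding genes with a peak, 721 had both kinds and 7864 neither. More WT than KO peaks were listed at 23 guidance genes, equal numbers at 12 and fewer at 4, against 5200, 8020 and 1004 of the protein-coding genes. The genes with fewer WT than KO peaks were Ephb1, Sema3b, Sema4f and Plxna4. No peak of either list was given to Epha5, Epha7, Epha8, Efna3, Efna4, Efnb3, Sema4g, Plxnb1 or Plxnc1. These were 9 of the 48, against 7407 of 21631 protein-coding genes.

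**Figure D1:**
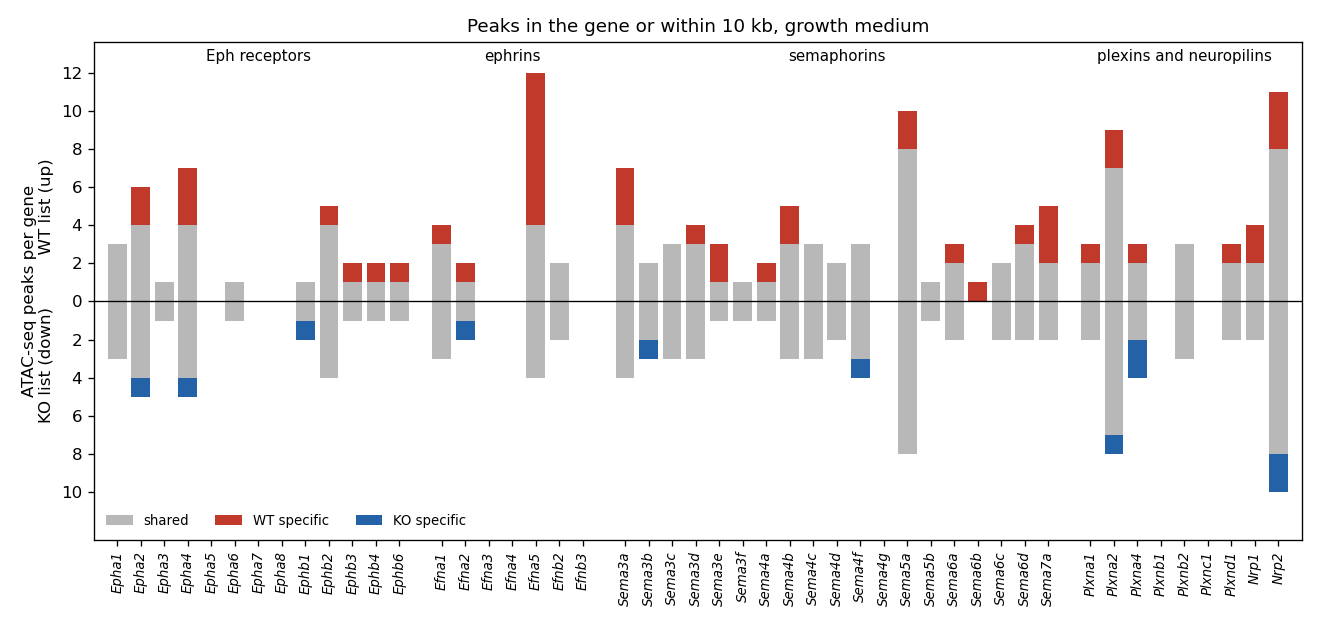
Peaks per gene for the 48 guidance genes, WT list drawn upward and KO list downward, with shared peaks in grey, WT specific peaks in red and KO specific peaks in blue. Efna5 has the tallest red segment (8 of 12 WT peaks), and blue segments occur at 9 genes.

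By role, the ephrins had the highest WT specific share, 10 of 20 peaks (50%, interval 29.9 to 70.1), and 8 of those 10 belonged to Efna5. The share was 9 of 30 (30.0%, interval 16.7 to 47.9) for Eph receptors, 17 of 61 (27.9%, interval 18.2 to 40.2) for semaphorins and 10 of 36 (27.8%, interval 15.8 to 44.0) for plexins and neuropilins. These 4 intervals overlap. In the KO list the specific share was 5 of 31 (16.1%, interval 7.09 to 32.6) for plexins and neuropilins, 3 of 24 (12.5%, interval 4.34 to 31.0) for Eph receptors, 1 of 11 (9.09%, interval 1.62 to 37.7) for ephrins and 2 of 45 (4.44%, interval 1.23 to 14.8) for semaphorins. No order of the roles in the KO list is resolved by these intervals.

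**Figure D2:**
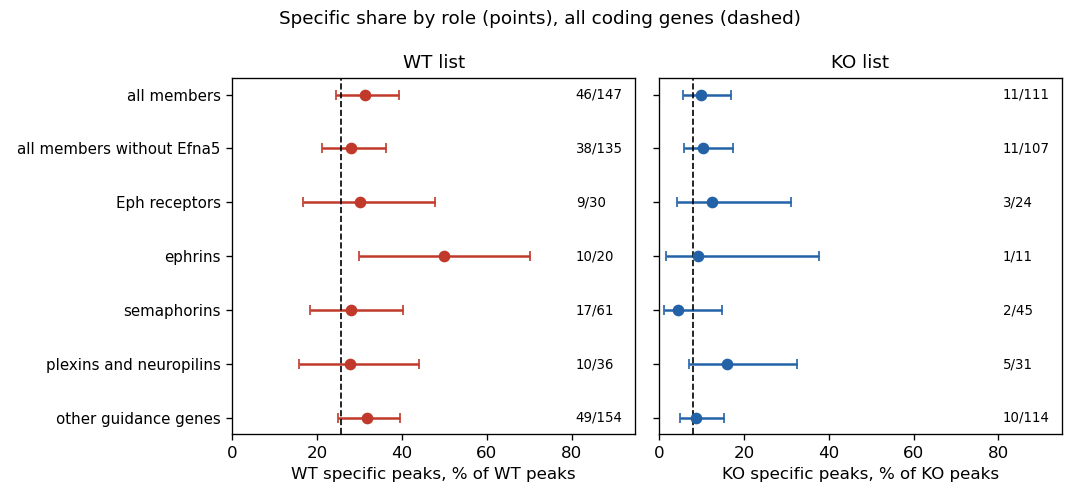
Share of peaks that are WT specific (left, % of WT peaks) and KO specific (right, % of KO peaks) by role of the gene, with 95% Wilson intervals as bars and the counts at the right of each panel. The dashed line is the share at all protein-coding genes (25.6% and 7.95%). In the WT list the interval of the ephrins (29.9 to 70.1) is the one that lies to the right of it. Of their 10 WT specific peaks, 8 belong to Efna5, and the interval counts peaks of 1 gene as separate. The other ephrins with peaks had 1 of 4 (Efna1), 1 of 2 (Efna2) and 0 of 2 (Efnb2).

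Among the ephrins, the ligands of the Eph receptors, Efna5 stood out by the number of its WT specific peaks. This gene on chromosome 17 (chr17:62602957-62881317, minus strand, 278 kb long) held 12 WT peaks and 4 KO peaks, and 8 WT peaks were WT specific while no KO peak was KO specific. Of 150 protein-coding genes with at least 12 WT peaks, 2 (1.33%), Efna5 included, had a WT specific share as high as its 66.7%. That rank is a description, since the gene was picked for it after its values had been seen.

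At Efna5, 7 of the 8 WT specific peaks lay in 1 stretch of 191 kb (chr17:62691606-62882461) that held no KO peak and wholly contained no other WT peak. They were 21.52 to 124.15 kb inside the gene from its start site and 182 to 408 bp wide. Their −log10 q ran from 2.51 to 14.4 and their fold from 3.90 to 8.84, all in the lower part of the WT list, where the strongest reached percentile 44.6. The strongest lay at chr17:62792960-62793300. In that stretch 10 KO call numbers are missing, so KO calls without a place in the list may lie there.

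The remaining WT specific peak of Efna5 was at −2.92 kb (upstream of the start site), with a −log10 q of 10.9. The 4 shared peaks of Efna5 flanked the stretch. The strongest, at 189.90 kb, had a −log10 q of 63.4 in WT and 32.5 in KO, and the one beside the start site, at −1.31 kb, had 20.8 and 9.91. Both lists thus had Efna5 peaks near the start and in the distal part of the gene, and 7 of the 8 WT specific peaks fell between these sites.

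Of the other ephrins, Efna1 held 4 WT peaks and 3 KO peaks. Its WT specific peak had a −log10 q of 19.7 and lay nearest to an end of the neighbouring gene Dpm3. Efna2 had 2 peaks in each list, 1 WT specific (−log10 q 7.0, chr10:80199566-80199736) and 1 KO specific (4.63, chr10:80172930-80173199). The KO specific peak lay 121 bp from an end of the neighbouring gene Fam174c. Efnb2, an ephrin-B ligand, had 2 shared peaks and no specific one. Its promoter peak had a −log10 q of 33.5 in WT and 14.4 in KO.

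**Figure D3:**
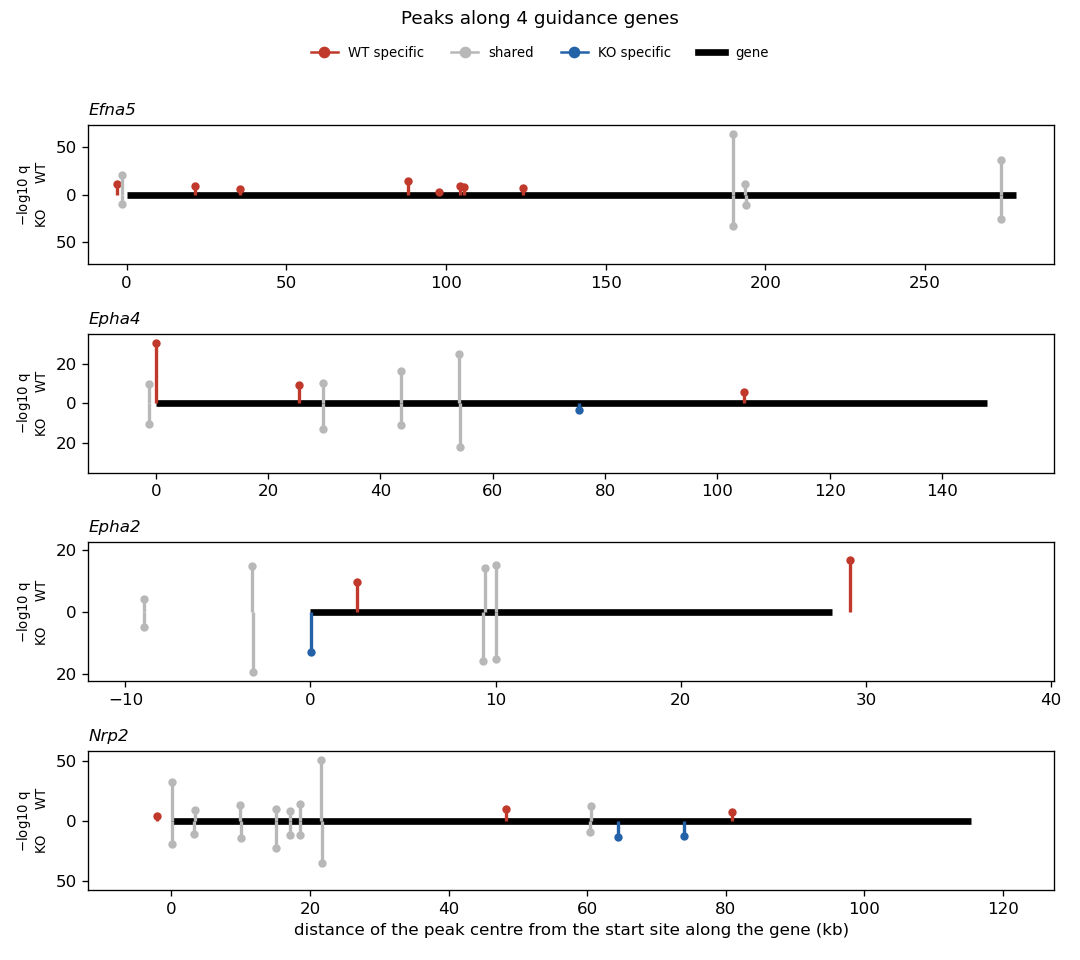
Position of peaks along Efna5, Epha4, Epha2 and Nrp2, as distance of the peak centre from the start site in kb along the gene (black bar), with the −log10 q of WT peaks above and KO peaks below the gene. Between 21.52 and 124.15 kb Efna5 shows red WT specific peaks only, Epha4 has a red peak and Epha2 a blue peak at the start site, and Nrp2 has both colours inside the gene.

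Among the Eph receptors, 3 of 13 genes had no peak in either list, against 7407 of 21631 protein-coding genes. Over all protein-coding genes, 39.1% of those with a WT peak had a WT specific one. Of those with a KO peak, 12.3% had a KO specific one. Both shares leave out genes without a peak of that list, whereas the counts over 13 genes include them. WT specific peaks occurred at 6 of the 13 Eph receptor genes, KO specific ones at 3, and both at 2 (Epha2 and Epha4). At these 2 genes the specific peaks included one at the start site, and they were of opposite class. Such peaks were rare: of the protein-coding genes with a peak over the promoter, that peak was WT specific at 10.4% and KO specific at 1.95%. Among the guidance genes with a promoter in the table, 16 had a WT peak over it (38.1%, against 43.0% of protein-coding genes) and 14 a KO peak (33.3%, against 39.5%).

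Epha4 encodes a receptor that binds both ephrin-A and ephrin-B ligands and guides motor axons into the limb. Its promoter held a WT specific peak of 174 bp (chr1:77515041-77515214, centre at −0.04 kb) with a fold of 12.2 and a −log10 q of 30.4, at percentile 77.7 of the WT list. This was the 71st strongest of 9318 WT specific peaks. No KO peak was listed there, and the nearest one began 0.931 kb away, at the shared site at −1.26 kb, which had a −log10 q of 9.76 in WT and 10.3 in KO. Around the promoter peak 3 KO call numbers are missing.

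Further into Epha4, WT specific peaks lay at 25.48 kb (−log10 q 9.34) and 104.72 kb (5.84), and a KO specific peak lay at 75.42 kb (chr1:77439485-77439859, 3.18). The KO specific peak was among the weakest of its list, at percentile 0.953. The 3 shared peaks inside the gene had a −log10 q from 10.1 to 25 in WT and from 11.1 to 22.1 in KO. In all, Epha4 held 7 WT peaks and 5 KO peaks.

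Epha2, a receptor of ephrin-A ligands that is studied mostly in epithelia and tumours, held 6 WT peaks and 5 KO peaks. Its promoter had a KO specific peak of 193 bp (chr4:141301132-141301324, centre at 0.01 kb) with a fold of 6.07 and a −log10 q of 12.8, the 531st strongest of 2607 KO specific peaks. No WT peak was listed there, and the nearest, 2.27 kb away, was itself WT specific (chr4:141303597-141303849, −log10 q 9.76). No WT call number is missing around the KO specific peak and no KO call number around that WT specific peak, so the numbering leaves no removed call in either place. A stronger WT specific peak lay at 29.16 kb, past the far end of the gene, with a −log10 q of 16.7 and a fold of 8.43.

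Ephb1, an EphB receptor, held 1 WT peak and 2 KO peaks. Its shared peak at 53.82 kb in the KO list (chr9:102300509-102301240) was among the 3 strongest KO peaks at guidance genes (−log10 q 66.6, fold 18.3) and had a −log10 q of 63.9 in the WT list. The KO specific peak, at chr9:102291256-102291528, had a −log10 q of 8.16. Ephb2, Ephb3, Ephb4 and Ephb6 each had 1 WT specific peak, with a −log10 q of 6.79, 9.67, 4.63 and 20.4. The peak of Ephb6, a receptor whose kinase is inactive, lay at 0.87 kb and 0.511 kb from a KO peak.

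Epha1, Epha3 and Epha6 had shared peaks only. The peak with the highest −log10 q given to a guidance gene in either list was counted under Epha1 (chr6:42349108-42350092 in the WT list, −log10 q 128 and fold 17.1, and 78.3 and 12.2 in the KO list), but it lay 89 bp from an end of Zyx and 8887 bp outside Epha1. Epha7 had no peak in its window. When peaks were given to the nearest end of a protein-coding gene, Epha7 received 1 WT peak and 5 KO peaks (4 KO specific), a case picked after its values had been seen.

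Among the semaphorins, WT specific peaks occurred at 10 of 19 genes and KO specific ones at 2 others. Shared peaks only were found at 6 genes, and 1 gene had no peak. The shares over protein-coding genes with a WT peak and with a KO peak were 39.1% and 12.3%. Both leave out genes without a peak of that list, whereas the 19 include them. The secreted class 3 members had 6 WT specific peaks of 20 (30.0%, interval 14.5 to 51.9) and the membrane-bound members 11 of 41 (26.8%, interval 15.7 to 41.9), so the shares of both kinds lay within each other's interval. The members with at least 2 WT specific peaks were Sema3a, Sema3e, Sema4b, Sema5a and Sema7a.

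Sema3a, the secreted repellent that binds neuropilin-1, held 7 WT peaks and 4 KO peaks, and 3 WT peaks were WT specific. The strongest of these had a fold of 13.9 and a −log10 q of 24.6 (chr5:13229704-13230172) and lay at −166.85 kb from the start site in the promoter table, still inside the longer interval of the gene, with the nearest KO peak 135 kb away. The others lay at 2.63 kb (4.30) and 20.55 kb (11.5). The 4 shared peaks had a −log10 q from 17.0 to 29.3 in WT and from 10.1 to 35.3 in KO.

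Sema3e, which binds plexin-D1 without a neuropilin, held 3 WT peaks and 1 KO peak. Its promoter was covered by a WT specific peak (chr5:14025210-14025492, fold 7.18, −log10 q 8.32), and the nearest KO peak was 47.7 kb away. The percentile of this peak in the WT list was 20.9, and 2 KO call numbers are missing around it. A further WT specific peak lay at 62.93 kb (5.43), and the shared peak at 48.04 kb had a −log10 q of 10.4 in WT and 8.47 in KO.

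Sema5a, a membrane semaphorin with thrombospondin repeats, held 10 WT peaks and 8 KO peaks. All 8 KO peaks were shared, among them the promoter peak (−log10 q 15.9 in WT and 9.33 in KO). The WT specific peaks lay at 362.60 kb (chr15:32607263-32607570, fold 11.3, −log10 q 19.9) and at 153.19 kb (7.50). The former lay 171 kb from the nearest KO peak, with 6 KO call numbers missing around it.

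Sema7a, a lipid-anchored semaphorin, held 5 WT peaks (3 WT specific) and 2 KO peaks. The WT specific peaks had a −log10 q of 11.8, 7.56 and 6.65. The strongest (chr9:57931456-57931651) lay nearest to an end of the neighbouring gene Ubl7. Sema4b, a class 4 membrane semaphorin, held 5 WT peaks and 3 KO peaks, with shared peaks at both of its promoters. Its WT specific peaks lay at 5.49 kb (chr7:80192253-80192457, −log10 q 9.29) and 4.78 kb (2.73).

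The KO specific peaks at semaphorins were single and weak. The peak at Sema3b, a class 3 member, had a −log10 q of 6.08 (chr9:107605336-107605478), and the peak at Sema4f had 4.96 (chr6:82948207-82948431) and lay nearest to the neighbouring gene M1ap. Sema4f also held the third-ranked KO peak at guidance genes, a shared one at chr6:82909075-82909735 with a −log10 q of 57.4 and a fold of 14.0. The second-ranked WT peak was counted under Sema4c (chr1:36546968-36547532, −log10 q 79.6, fold 21.1) and lay 2 bp from an end of Ankrd39. Sema3d, Sema4a, Sema6a, Sema6b and Sema6d had 1 WT specific peak each, with a −log10 q from 4.30 to 7.83, and the peak of Sema6b was its only peak in either list. Sema3c, Sema3f, Sema4c, Sema4d, Sema5b and Sema6c had shared peaks only.

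Plexins and neuropilins are the receptors of the semaphorins. Of these 9 genes, 6 had a WT specific peak, and 3 of the 6 (Plxna2, Plxna4 and Nrp2) also had a KO specific one. The 9 include 2 genes without a peak. The shares over protein-coding genes (39.1% for WT specific, 12.3% for KO specific) count only genes with a peak of that list. Plexins had 5 WT specific peaks of 21 (23.8%, interval 10.6 to 45.1) and neuropilins 5 of 15 (33.3%, interval 15.2 to 58.3). Plxnb2, a receptor of class 4 semaphorins, had shared peaks only. Its promoter peak (chr15:89180505-89181212 in the WT list) was the third-ranked WT peak at guidance genes, with a −log10 q of 74.6 and a fold of 13.7. Within the KO list the peak at this site had 46.8 and 9.78.

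Nrp2, a co-receptor of class 3 semaphorins, held 11 WT peaks and 10 KO peaks, of which 3 and 2 were specific. Its promoter peak was shared, with a −log10 q of 31.9 in WT and 19.2 in KO, and its strongest peak, at 21.60 kb, had 50.3 and 34.9. The KO specific peaks lay at 64.51 kb (chr1:62767734-62767914, −log10 q 13.5) and 74.03 kb (13.1). The WT specific peaks lay at 48.23 kb (chr1:62751405-62751693, 9.46), 80.86 kb (7.41) and −2.09 kb (3.46), so specific peaks of both genotypes lay between 48.23 and 80.86 kb in the gene body, with a shared peak among them. Nrp1, the neuropilin bound by Sema3a and also by VEGF, held 4 WT peaks and 2 KO peaks, and its WT specific peaks lay at 41.45 kb (chr8:128400446-128400605, 11.7) and 106.67 kb (10.1).

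Plxna2, a plexin-A receptor, held 9 WT peaks and 8 KO peaks. Its strongest WT specific peak lay at 201.37 kb, past the far end of the gene (chr1:194821098-194821305, fold 11.1, −log10 q 20.6). Its KO specific peak was weak (chr1:194782640-194782836, 4.47) and lay 0.585 kb from a WT peak. Plxna4, another plexin-A receptor, held 3 WT peaks and 4 KO peaks. Its KO specific peaks had a −log10 q of 16.6 (chr6:32271358-32271724, fold 9.05) and 7.11, the former being the highest −log10 q and the highest fold of a KO specific peak at a guidance gene, and its WT specific peak had 7.30 (chr6:32591113-32591584). Both KO specific peaks lay in the same gap of the WT list, where 8 WT call numbers are missing. Around the WT specific peak 5 KO call numbers are missing.

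Plxna1 and Plxnd1 each had 1 WT specific peak. The peak at Plxna1 (chr6:89354680-89355082) had the highest −log10 q of a WT specific peak at a guidance gene, 33.2, with a fold of 10.5 and rank 39 by −log10 q among 9318 WT specific peaks. It lay inside Plxna1, 7732 bp from the nearer end of that gene and nearest to an end of the predicted gene Gm40415. The peak was singled out after its values had been seen. Plxnd1, the receptor of Sema3e, had a WT specific peak with a −log10 q of 7.94 and a shared peak over its promoter.

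Across all guidance genes, specific peaks were the narrower and weaker ones of each list. WT specific peaks had a median width of 252 bp against 420 bp for shared WT peaks, a median −log10 q of 8.13 against 18.9 and a median fold of 6.38 against 8.75. In the whole WT list the medians for specific and shared peaks were 250 and 424 bp in width and 8.38 and 21.1 in −log10 q, close to those at guidance genes. In the KO list the 11 specific peaks had a median width of 270 bp and a median −log10 q of 7.11, against 471 bp and 19.1 for shared peaks. Of the 46 WT specific peaks, 8 reached the median −log10 q of the whole WT list (16.1). They lay at Epha2, Epha4, Ephb6, Efna1, Sema3a, Sema5a, Plxna1 and Plxna2. All WT specific peaks of the list had a median of 8.38, also below that whole-list median. The share of them that reached it was not counted. The weakest of the 8 peaks, at Epha2 (−log10 q 16.7), had rank 935 among 9318 WT specific peaks.

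Missing call numbers accompanied most specific peaks. A KO number was missing around 43 of the 46 WT specific peaks (93.5%, against 87.1% of all WT specific peaks), and the 3 others lay at Epha2, Efna2 and Sema4a. Peaks in the same gap of the other list were counted separately, as were the 7 Efna5 peaks beside the same 10 missing KO numbers. A WT number was missing around 8 of the 11 KO specific peaks (72.7%, against 87.4%), and the 3 others lay at Epha2, Epha4 and Plxna2. For shared peaks the span can end at the overlapping peak itself. There the shares were 47.5% of WT and 23.0% of KO peaks at guidance genes, against 40.9% and 35.7% over the lists. The part of removed calls in the specific class of the remaining peaks was not tested.

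**Figure D4:**
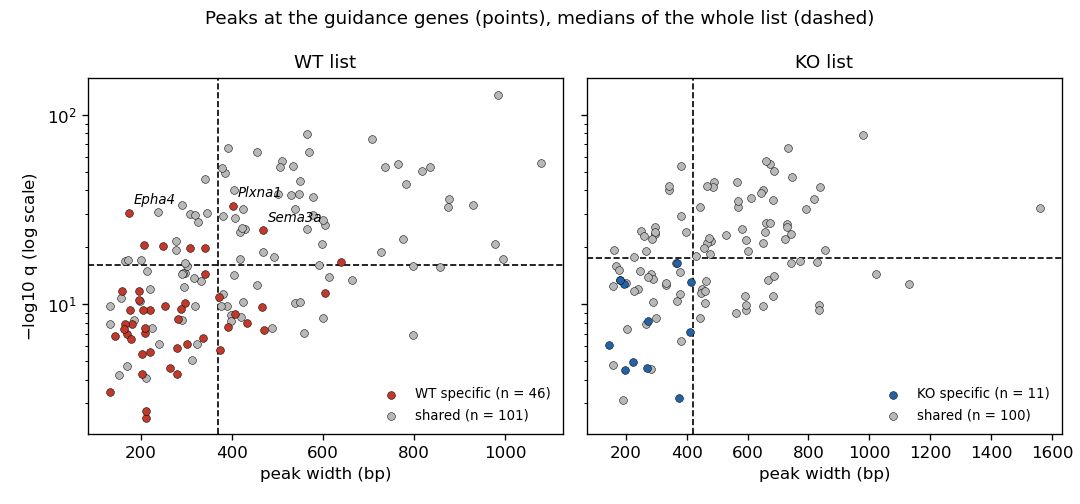
Width (bp) against −log10 q (log axis) of each peak at the guidance genes in the WT list (left) and the KO list (right), with shared peaks in grey and specific peaks in colour. Dashed lines are the medians of the whole list (371 bp and 16.1 for WT, 421 bp and 17.6 for KO). Below the horizontal line lie 38 of the 46 WT specific and all 11 KO specific peaks. The same shares over all specific peaks were not counted.

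Most peaks lay away from gene ends. In the WT list 28 of 147 peaks (19.0%, interval 13.5 to 26.2) had their centre within 1 kb of an end of any gene, against 30.4% of the whole list, and in the KO list 25 of 111 (22.5%, interval 15.7 to 31.1), against 32.8%. Relative to the guidance gene itself, 103 WT peaks lay elsewhere in the gene (33 of them WT specific, 32.0%), 25 lay 1 to 10 kb outside it (9 specific, 36.0%) and 19 lay within 1 kb of one of its ends (4 specific, 21.1%). For 9 WT peaks and 9 KO peaks the nearest protein-coding gene end, within 1 kb, belonged to another gene. Just inside the edge of the window, 5 to 10 kb outside the genes, there were 10 WT peaks (4 specific) and 8 KO peaks (2 specific), and just beyond it, 10 to 15 kb outside, 19 WT peaks (7 specific) and 12 KO peaks (0 specific).

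The letters of the promoters were compared last. Motifs were searched on both strands as TGTGGT (RUNX), CCGGAA (ETS), CAGCTG (E-box), TGANTCA (AP-1) and GGAATG (TEAD), and a match is a description of letters. Of 56 promoters of guidance genes, 6 held the RUNX letters (10.7%, against 16.6% of 32619 promoters in the table), at Efna3, Efna4, Ephb1, Sema3a, Sema4d and Sema6d. The ETS and E-box letters were each in 6 (10.7%, against 15% and 16.4%), the TEAD letters in 7 (12.5%, against 14.6%) and the AP-1 letters in 3 (5.36%, against 7.85%). The RUNX letters were absent from the 3 promoters under a specific peak (Epha4, Epha2 and Sema3e), too few to compare with the share in the table. Specific peaks outside these promoters were not searched.

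In the printed sequences the Epha2 promoter held the TEAD letters in reverse (CATTCC) with first bases 243 and 56 bases before the start site, and the second of these lies under the KO specific peak. Efnb2 held GGAATG 105 bases before its start site, Ephb3 held CAGCTG 137 bases before, and Sema3d held CCGGAA 14 bases before. Promoters of guidance genes under a peak had a median GC content of 66.0% (18 promoters) and those without a peak 62.7% (38 promoters). Over the whole table the medians were 62.0% with and 49.3% without a peak, so guidance genes without a promoter peak had GC-rich promoters too.

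A second list of 48 guidance genes was counted in the same way. It holds netrins and their receptors, Slits and Robos, Rgma and Rgmb, intracellular effectors and family members outside the first list. WT specific were 49 of 154 WT peaks (31.8%, interval 25 to 39.5) and KO specific 10 of 114 KO peaks (8.77%, interval 4.83 to 15.4). Of these genes 24 had a WT specific peak (58.5% of those with a WT peak, against 39.1% of protein-coding genes and 55.6% of those with exactly 3 WT peaks). Neither background share is matched to the peak numbers of this list. A KO specific peak was present at 7 (18.9% of those with a KO peak, against 12.3%). The class of netrins and their receptors, with Rgma and Rgmb counted in it, had the highest WT specific share, 19 of 39 (48.7%, interval 33.9 to 63.8). Of those 19 peaks, 5 lay at Unc5c, 4 at Rgma and 3 at Ntn4, and the interval counts peaks of 1 gene as separate. The share was 25 of 91 (27.5%, interval 19.4 to 37.4) for effectors and 3 of 19 (15.8%, interval 5.52 to 37.6) for Slits and Robos.

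The genes of this second list with at least 3 specific peaks were these. Unc5c, a netrin receptor, had 5 WT specific peaks of 6, one of them over its promoter, and 1 shared KO peak. Rgma, a ligand of the netrin receptor neogenin, had 4 WT peaks, all WT specific, and no KO peak. Ntn4, a netrin, had 3 WT specific peaks of 5, and Vav3, an intracellular effector that acts below Eph receptors, had 4 of 7. Robo2, a Slit receptor, had the reverse pattern, with 3 KO specific peaks of 9 and 0 WT specific peaks of 6. Farp1, an exchange factor in semaphorin signalling, had 4 WT specific peaks of 12. Dpysl3, a cytoskeletal mediator of semaphorin signals, had 3 of 5 and 1 KO specific peak of 3. Mical3, of the family of plexin-binding oxidases, had 2 of 14 in each list. Nck2, an adaptor that binds activated receptors, had 2 of 4, one of them over its promoter, and 1 KO specific peak of 3.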

How the data were processed

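ATAC-seq peak lists of WT and Runx1KO C2C12 cells in growth medium were used, 5 in all: a full list of each genotype, a shared list and a specific list of each genotype. They have the narrowPeak layout without a header. The authors deposited for each peak a fold (a ratio to background) and a −log10 q. The genome build is mm10, per the submitters' processing notes; aligner, peak caller, filters and the use of replicates 2 and 3 are not given in the sources used here. These choices affect how many peaks are called and where their edges fall. No read counts were used, and the depth is unknown, so precision is limited to the counting of peaks. The number of columns of other samples was 0.

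Computed from the lists were peak counts per gene, shares with 95% Wilson intervals, medians, distances and gaps in the call numbers, with Python 3.11.15, numpy 2.4.6, pandas 2.3.3, scipy 1.17.1 and bedtools 2.31.1. The deposited classes were identical to an overlap of 1 bp. Gene positions, start sites and promoters came from RefSeq tables of GRCm38.p6, which give no exons, so exons and introns were not told apart. For genes with several start sites the distance is to the nearest. The calculations were tested on simulated data.

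The 48 genes were selected by name, with a rule that uses no measured value, but they and the other lists were chosen with earlier results of these data known. Genes were named with values when they had at least 2 WT specific peaks or at least 1 KO specific peak, or were among the 5 with the most WT peaks, together with the 3 strongest peaks of each list. Genes of the second list were named when they had at least 3 specific peaks. Other genes named with values were picked after those had been seen. Alternatives in window, assignment, overlap, threshold and distance were computed, and leaving out Efna5 was chosen after seeing the data.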

Additional observations from a re-analysis of the deposited data

How the results depend on the processing

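The results were recomputed under 13 alternatives, giving 79 values, of which 64 kept to the replaced value within its interval (counts within 1.5 times) and 15 moved. Some of the 64 had no room to move, so their number is not a measure of robustness. The share near a gene end (19.0%) does not depend on how sharing is defined. Allowing a gap of 500 bp between shared peaks left every value unchanged. Specific peaks at these genes had no partner that near. Assigning peaks by any overlap with the window also returned the same values. With only peaks whose −log10 q reached the median of their own list, the WT specific share was 12.1%, the KO specific share 0% of 54 peaks (upper Wilson limit 6.64%), the genes with a WT specific peak 8 and with a KO specific peak 0, the share near a gene end 30.3%, and the median width and −log10 q of WT specific peaks 325 bp and 20.5. With both lists limited to a −log10 q of at least 10, where classes were made anew and shared peaks could lose a weaker partner, the KO specific share was 21.1%, 16 genes had a WT specific peak, and those medians were 324 bp and 15.2. A reciprocal overlap of 50% gave a KO specific share of 17.1%. The share near a gene end was 8.11% in gene bodies alone, 13.1% by the nearest gene end and 29.9% with 2 kb. The WT specific share stayed above the KO specific share under every alternative computed. The whole lists had the same order (27.3% and 9.59%), and the WT list is the longer one (34118 against 27187 peaks). That order is therefore not particular to the guidance genes. No values over all peaks are given beside the limits on −log10 q. No paired analysis was possible because there is 1 list per genotype, with no values by replicate, and for the same reason no replicate could be left out. The cause of the other moves was not tested. Depth limits every comparison between the lists, and peaks that were removed before deposit cannot be seen.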
